A study of Equus caballus with 25 samples.

Results

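Endometrial mRNA of 3 receptor genes was followed through the oestrous cycle of the mare: ESR1, PGRMC1 and RARB. ESR1 encodes oestrogen receptor alpha, PGRMC1 encodes a haem-binding membrane protein that has been linked to progesterone signalling, and RARB encodes retinoic acid receptor beta. They are 3 of 620 genes with a named probe. Their probes were taken by transcript, as every probe on the array whose RefSeq accession belongs to one of the 3 horse genes. This gave 10 of 43603 probes, of which 6 report ESR1, 2 report PGRMC1 and 2 report RARB. All 10 were 1 spot each and were well above background on all 25 arrays, so all 10 passed the filter on dim probes. The rule that takes the probes uses no measured value, while the 3 genes themselves were chosen with earlier results of these data known.

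The samples were transcervical endometrial biopsies of 5 normally cycling Bavarian Warmblood mares, hybridised to one-colour Agilent arrays. Each of the 5 mares was sampled once at each of 5 days counted from ovulation, which gave 5 arrays a day. The labels call these days oestrus (day 0, the day of ovulation), early dioestrus (day 3), dioestrus (day 8), late dioestrus (day 12) and early oestrus (day 16). No mare was treated, and a mare's biopsies came from different cycles or, within 1 cycle, were spaced by at least 9 days. A biopsy holds luminal and glandular epithelium, stroma, vessels and blood cells together. Fewer cells of a type and less RNA per cell therefore cannot be told apart in any value given here.

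Oestrogen receptor alpha and retinoic acid receptor beta are ligand-activated transcription factors of the nuclear receptor family. Oestradiol from the growing follicle dominates oestrus and progesterone from the corpus luteum dominates dioestrus, and in the uterus of many mammals oestradiol raises and progesterone lowers the receptor for oestradiol. PGRMC1 is no nuclear receptor. It lies in membranes of the endoplasmic reticulum and elsewhere and also binds cytochrome P450 enzymes. RARB is itself a classical target of retinoic acid in mammalian cells, where it acts on DNA as a partner of the RXR receptors.

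A level is given as log2 of the background-subtracted signal minus the 75th percentile of the same array on the log2 scale, so a level of 0 lies at that percentile. The 75th percentile itself lay between 698 and 3701 signal units, and its medians in day order were 895, 1720, 1559, 1868 and 2001. Well above background were 70.3% to 88.1% of an array's spots, and 0 spots were saturated. The epithelial marker ESRP1 and the stromal markers LUM and DCN were well above background on all 25 arrays. Array number limits the precision of every value. A difference was called at an adjusted p under 0.05 in limma's moderated tests, over 35772 tested probes. Among these, 35.8% differed between the 5 days in the F test. Of the 10 probes, 8 were called in that test: 4 of 6 for ESR1, both for PGRMC1 and both for RARB.

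The 3 genes followed 3 different courses. ESR1, by its brightest probe, had its highest mean at ovulation (at day 3 after quantile normalization and in unscaled signal), fell by 1.73 ± 0.25 (SE) on the log2 scale at day 12 against day 0, and was higher again at day 16 than at day 12. PGRMC1 peaked at day 8, where it was 2.46-fold above day 0. RARB was highest at day 0 (at day 16 in unscaled signal) and lower at days 3, 8 and 12, with its lowest mean at day 8, 2.30-fold below day 0. The courses of any 2 of the genes differed from each other. The per-array difference between the brightest probes varied with the day for ESR1 against PGRMC1 and for PGRMC1 against RARB (permutation test, adjusted p = 3e-05 in both, where 1e-05 is the smallest unadjusted p the permutations can give). It also did for ESR1 against RARB (permutation test, adjusted p = 0.00068, adjusted over these 3 pairs). These permutations moved the days over all 25 arrays without regard to the mare. With the days permuted within each mare, the adjusted p was 0.000345 for ESR1 against PGRMC1. In that test it was 3e-05 for PGRMC1 against RARB and 0.00225 for ESR1 against RARB.

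ESR1 is described first by its brightest probe, A_69_P000806, whose mean level over all arrays was 6.34. At day 0 the levels of mares 1 to 5 were 7.02, 7.47, 7.0, 6.86 and 7.25. At day 3 they were 5.86, 7.05, 7.04, 6.87 and 6.54. At day 8 they were 6.12, 5.81, 5.89, 6.18 and 6.24. The day 8 levels all lay below the day 0 levels, while the day 3 levels overlapped with both. At day 12 the levels were 5.22, 5.48, 5.07, 5.40 and 5.78, the lowest in every mare. At day 16 they were 7.30, 6.50, 6.47, 5.53 and 6.54. The 5 mares thus spread over a wide range at day 16, from a level within the day 0 range in mare 1 to one within the day 12 range in mare 4. The day means were 7.12 ± 0.24, 6.67 ± 0.50, 6.05 ± 0.19, 5.39 ± 0.27 and 6.47 ± 0.63 in day order (SD, n = 5 each).

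**Figure D1:**
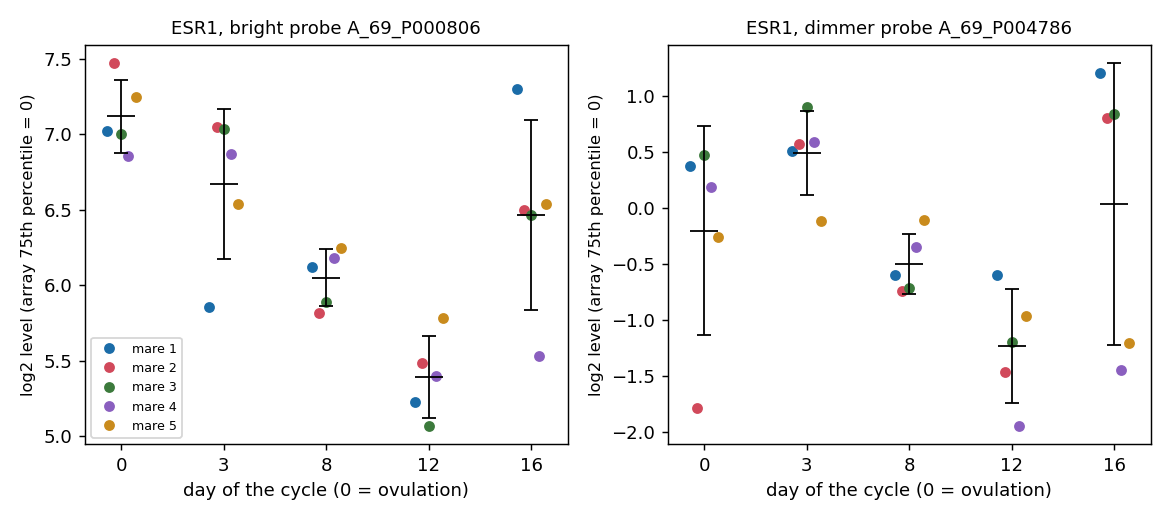
ESR1 levels (log2, array 75th percentile at 0) against the day of the cycle for the brightest probe (left) and the brightest of the 5 dimmer probes (right), with a coloured point for each mare and bars for the day mean ± SD (n = 5). On the left the day means run from 7.12 at day 0 down to 5.39 at day 12 and stand at 6.47 at day 16, and on the right the highest day mean is 0.49 at day 3 and the lowest is -1.24 at day 12.

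Of the 10 pairs of days, 4 were called for this probe (limma, two-sided, Benjamini-Hochberg adjusted). ESR1 was 3.32-fold lower at day 12 than at day 0 (adjusted p = 4.53e-05) and 2.43-fold lower at day 12 than at day 3 (adjusted p = 0.000982), in 5 of 5 mares both times. It fell by 1.07 ± 0.25 at day 8 against day 0 (adjusted p = 0.00385, lower in 5 of 5 mares). It rose by 1.08 ± 0.25 at day 16 against day 12 (adjusted p = 0.00898, higher in 5 of 5 mares). The order of the day means was day 0, day 3, day 16, day 8, day 12, and 0 of the 4 pairs of neighbours in that order passed the test. One of those neighbours, day 12 against day 8, did not overlap between the groups yet was not called: the difference was -0.66 with a 95% interval from -1.19 to -0.13 (adjusted p = 0.202).

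The arrays lay on 7 slides scanned on 4 days, and each slide was scanned on 1 of these days. Slides 1 to 5 each held arrays of 1 mare, so a difference within them was that mare's own. Slides 6 and 7 held no mare more than once, so a difference within them was between mares. With the slide as a block, the bright ESR1 probe still differed between the days (limma, adjusted p = 0.00288), and all 4 pairs of days stayed called. With the mare and the slide both as blocks, day 8 minus day 0 (-1.13, adjusted p = 0.156) and day 16 minus day 12 (1.12, adjusted p = 0.0845) were not called, while both falls at day 12 were. Within single slides the difference of day 12 and day 0 was -1.46 and -1.45 in the 2 slides that held both days. The second of these, slide 7, compared mare 5 with mares 2 and 3. Day 16 minus day 12 was 0.13, 1.40 and 2.08 in the 3 slides that held both. In unscaled log2 signal the day means were 17.15, 17.51, 16.62, 16.22 and 17.46 in day order, so day 12 was again lowest, while the highest mean there was at day 3. After quantile normalization day 3 was likewise highest, at 17.36, with day 0 at 17.30 and day 12 lowest at 16.25. The level correlated with the log2 75th percentile at r = -0.52 over the 25 arrays, and with that percentile as a covariate the adjusted p of the F test was 0.000186. After quantile normalization the difference of day 12 and day 0 was -1.05 in place of -1.73, still called in limma (adjusted p = 0.00351), and the fall at day 8 was not called (-0.65, adjusted p = 0.0574).

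Some calls rested on single mares. Without mare 2, neither day 8 against day 0 (-0.92, adjusted p = 0.0520) nor day 16 against day 12 (1.09, adjusted p = 0.0539) was called in limma. Without mare 3 the difference of day 16 and day 12 was 0.996, with an adjusted p of 0.0828.

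The other 5 ESR1 probes, A_69_P004786 to A_69_P004790, carry the same RefSeq transcript in the array's annotation. Their mean levels were -0.44 to -0.28. Signals of different probes are not amounts of transcript, so a difference in level between probes is not read as one in amount. Among the 5, each pair correlated at r = 0.995 to 0.999 over the 25 arrays, and the SD of a pair's difference was 0.03 to 0.09. Each of the 5 correlated with the bright probe at r = 0.52 to 0.55, with an SD of the difference of 0.79 to 0.81. For scale, 32351 pairs of tested probes share a transcript name on this array, over 6566 transcripts, and their median r was 0.964. Between 4.99% and 5.55% of those pairs had an r below the values for the bright ESR1 probe. The mean level of the bright probe lay 6.62 to 6.78 above those of the 5. Of the pairs that share a transcript name, 0.21% differed by more than 6.62, and the median difference was 0.17. The points of these correlations are the same 25 arrays, 5 from each mare, so they are given as descriptions.

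The brightest of the 5, A_69_P004786, stands for the group. At day 0 its levels in mares 1 to 5 were 0.38, -1.79, 0.47, 0.19 and -0.26. At day 3 they were 0.51, 0.57, 0.90, 0.59 and -0.12. At day 8 they were -0.60, -0.75, -0.71, -0.35 and -0.11. Mare 2 at day 0 lay below every array of days 3 and 8. At day 12 the levels were -0.60, -1.47, -1.20, -1.95 and -0.97. At day 16 they were 1.20, 0.80, 0.84, -1.45 and -1.21. At day 16 mares 1 to 3 were thus within or above the day 3 range, while mares 4 and 5 were within the day 12 range. The day means were -0.20 ± 0.93, 0.49 ± 0.37, -0.50 ± 0.27, -1.24 ± 0.51 and 0.04 ± 1.26 in day order (SD, n = 5 each).

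For each of the 5 dimmer probes 1 of the 10 pairs of days was called, and it was day 12 against day 3. A_69_P004786 was 3.31-fold lower at day 12 than at day 3 (limma, adjusted p = 0.0103, lower in 5 of 5 mares). The differences of the 5 probes in that comparison ran from -1.74 to -1.63, with adjusted p-values of 0.00992 to 0.0171. The bright probe was also lower in it, so all 6 ESR1 probes fell there, where 9.23% of the tested probes were called lower. Without mare 3, 0 of the 5 dimmer probes were called in this pair of days (limma, A_69_P004786 at -1.63 with an adjusted p of 0.0595). Day 12 against day 0, where the bright probe fell by 1.73, ran from -1.03 to -0.95 for the 5 dimmer probes and was called for none of them (limma, adjusted p = 0.130 to 0.176, lower in 4 of 5 mares for each, with 3 of the 5 at an unadjusted p under 0.05). Day 8 against day 0, called for the bright probe, was -0.30 ± 0.46 for A_69_P004786 (adjusted p = 0.715). Day 16 against day 12 was 1.27 ± 0.46 (adjusted p = 0.0968, higher in 4 of 5 mares).

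Over the 5 days together, 3 of the 5 dimmer probes were called in limma's F test, and their adjusted p-values lay close to the threshold, between 0.0412 and 0.0683 for the 5. Leaving out 1 array at a time left only the bright probe called in 14 of 25 cases. Conversely, all 6 ESR1 probes were called without the day 0 array of mare 2, without the day 16 array of mare 4 or without the day 16 array of mare 5. With the mare as a block all 5 dimmer probes were called, with adjusted p-values of 0.0296 to 0.0442.

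The bright and dimmer probes placed the highest day mean differently, at day 0 for the bright probe and at day 3 for all 5 dimmer ones. The test of that difference did not pass. Across the 15 pairs of ESR1 probes, the per-array difference varied with the day in 0 pairs (permutation test, adjusted over 15 pairs, lowest unadjusted p = 0.0597, 0 pairs with an unadjusted p under 0.05). The 5 pairs that hold the bright probe each had an adjusted p of 0.440. The bright probe minus the mean of the 5 averaged 7.43 ± 1.16, 6.28 ± 0.54, 6.66 ± 0.12, 6.70 ± 0.61 and 6.54 ± 0.93 in day order (SD, n = 5 each). At day 8 the 5 mares lay within 6.46 to 6.78, the narrowest range of any day.

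**Figure D2:**
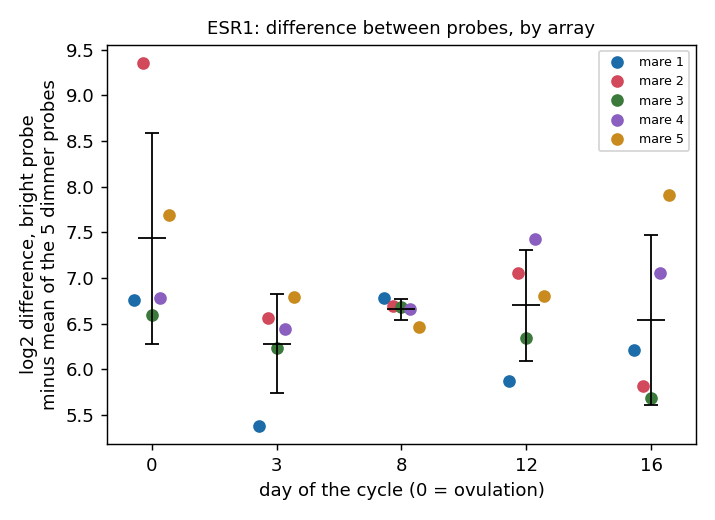
Difference in log2 level between the bright ESR1 probe and the mean of the 5 dimmer ESR1 probes on each array, by day of the cycle, coloured by mare, with bars for the day mean ± SD (n = 5). The day 0 array of mare 2 stands at 9.36 and the other 24 arrays lie between 5.38 and 7.91.

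One array stood apart in this difference. The day 0 array of mare 2 had 9.36, against 5.38 to 7.91 on the other 24 arrays. On that array the scaled level of the bright ESR1 probe was the highest of all 25, but its unscaled signal was not. The day 0 levels of the brightest dimmer probe were -1.79 in mare 2 and -0.26 to 0.47 in the other mares. That dimmer probe also had its lowest unscaled signal on this array, 201 units. Without this array, the day 0 mean of the 5 dimmer probes was 0.08 ± 0.37 (SD, n = 4) and the day 0 difference was 6.95 ± 0.49. The correlation between the bright probe and the mean of the 5 was then 0.738 in place of 0.538. These values without that array were computed after the data had been seen. It was also the array with the lowest 75th percentile and the lowest share of spots above background.

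PGRMC1 was highest at day 8 in every mare, by both of its probes. For the brighter probe, A_69_P102497, the levels of mares 1 to 5 at day 0 were 4.39, 5.39, 4.80, 4.79 and 4.79. At day 3 they were 5.28, 5.11, 5.18, 5.14 and 5.78. At day 8 they were 5.80, 6.03, 6.55, 5.97 and 6.28. All 5 day 8 levels were above all levels of days 0 and 3. At day 12 the levels were 4.55, 5.54, 4.87, 5.73 and 5.62. At day 16 they were 4.48, 4.83, 5.10, 5.05 and 4.89. Day 12 was split, with mares 1 and 3 within the day 16 range and mares 2, 4 and 5 above it. The day means were 4.83 ± 0.36, 5.30 ± 0.28, 6.13 ± 0.29, 5.26 ± 0.52 and 4.87 ± 0.25 in day order (SD, n = 5 each).

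The differences called for PGRMC1 all involved day 8. The brighter probe rose by 1.30 ± 0.23 at day 8 against day 0 (limma, adjusted p = 0.000247). It was 1.78-fold higher at day 8 than at day 3 (adjusted p = 0.0157). At day 16 it was 2.39-fold lower than at day 8 (adjusted p = 0.000499). Each direction held in 5 of 5 mares. Day 12 against day 8 was -0.86 with a 95% interval from -1.33 to -0.39, without overlap between the groups, and was not called (adjusted p = 0.0622). In that pair of days 1.1% of all tested probes were called, and 0 of the 10 receptor probes in limma (3 of 10 at an unadjusted p under 0.05). With the mare as a block this fall at day 12 was called (adjusted p = 0.0323).

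The order of the means was day 8, day 3, day 12, day 16, day 0, and of the 4 neighbouring pairs only day 8 against day 3 passed. Day 16 and day 0 lay 0.04 apart, with a 95% interval from -0.43 to 0.51. The second probe, A_69_P102496, gave day means of 4.84 ± 0.34, 5.08 ± 0.23, 5.89 ± 0.26, 5.18 ± 0.40 and 4.71 ± 0.20 in day order. The same 3 pairs of days were called for it: 1.05 ± 0.20 for day 8 minus day 0, 0.80 ± 0.20 for day 8 minus day 3 and -1.18 ± 0.20 for day 16 minus day 8. Their adjusted p-values in limma were 0.000542, 0.00770 and 0.000250. In the last of these pairs its day 16 levels ran from 4.48 to 5.04, against 5.62 to 6.30 at day 8.

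With the slide as a block, PGRMC1 still differed between the days by its brighter probe (limma, adjusted p = 0.000316). Within slides its day 8 minus day 0 difference was 1.49 and 1.58, and its day 16 minus day 8 difference lay between -1.45 and -1.15 in 4 slides. The values 1.58 and -1.15 came from slide 6, which held different mares. In unscaled log2 signal the day means were 14.86, 16.14, 16.69, 16.09 and 15.86 in day order, again with day 8 highest and day 0 lowest. After quantile normalization 2 further pairs of days were called, day 3 minus day 0 at 0.64 (adjusted p = 0.0385) and day 12 minus day 0 at 0.77 (adjusted p = 0.00962). The day 8 against day 3 call of the brighter probe was lost without the day 8 array of mare 3 (0.72, adjusted p = 0.0509) and without mares 2, 3 or 4 (adjusted p up to 0.110).

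RARB had its highest mean in oestrus. For its brighter probe, A_69_P117721, the levels of mares 1 to 5 at day 0 were -0.96, -1.50, -1.91, -2.11 and -0.92. At day 3 they were -3.10, -2.28, -2.36, -2.01 and -2.69. At day 8 they were -2.59, -2.64, -2.63, -2.92 and -2.64. All 5 levels of day 8 lay below all 5 of day 0, while at day 3 mare 4 was above its own day 0 level. At day 12 the levels were -2.58, -2.46, -2.29, -2.23 and -2.42. At day 16 they were -1.71, -2.19, -1.66, -2.07 and -1.80. The day 16 levels were all above those of days 8 and 12, and they fell inside the day 0 range apart from mare 2. The day means were -1.48 ± 0.54, -2.49 ± 0.42, -2.68 ± 0.13, -2.40 ± 0.14 and -1.89 ± 0.23 in day order (SD, n = 5 each). The mares spread least at days 8 and 12 and most at day 0.

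**Figure D3:**
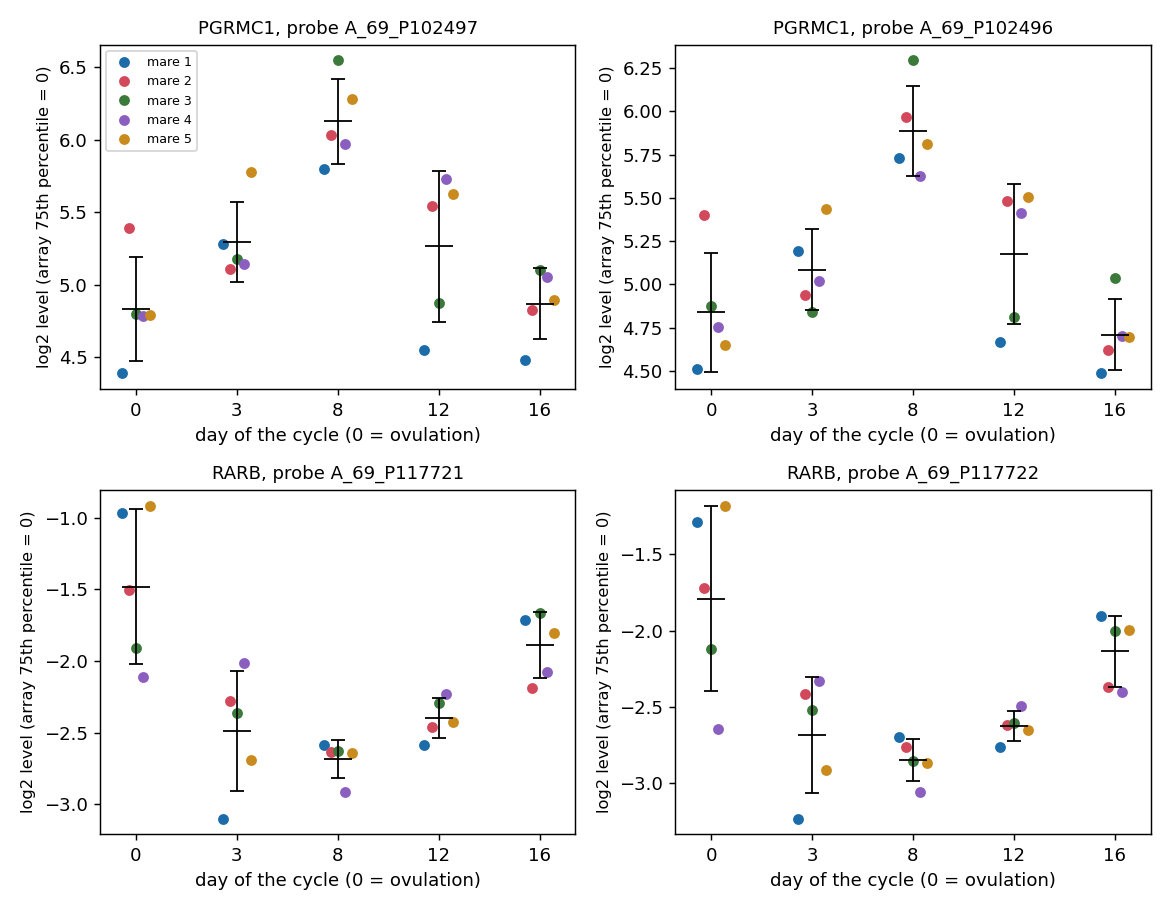
Levels (log2, array 75th percentile at 0) of both PGRMC1 probes (top) and both RARB probes (bottom) against the day of the cycle, coloured by mare, with bars for the day mean ± SD (n = 5). Both PGRMC1 probes peak at day 8, with means of 6.13 and 5.89, and both RARB probes have their lowest mean there, at -2.68 and -2.85.

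For RARB 4 pairs of days were called, the same 4 for both probes. The brighter probe fell by 1.01 ± 0.22 at day 3 against day 0 (limma, adjusted p = 0.00461, lower in 4 of 5 mares). It was 2.30-fold lower at day 8 than at day 0 (adjusted p = 0.000342) and 1.89-fold lower at day 12 than at day 0 (adjusted p = 0.00443), in 5 of 5 mares both times. It rose by 0.79 ± 0.22 at day 16 against day 8 (adjusted p = 0.0149, higher in 5 of 5 mares). The second probe, A_69_P117722, had day means of -1.79, -2.68, -2.85, -2.63 and -2.14 in day order. Its differences were -0.89 for day 3 minus day 0, -1.06 for day 8 minus day 0, -0.83 for day 12 minus day 0 and 0.71 for day 16 minus day 8. The order of the means was day 0, day 16, day 12, day 3, day 8, and 0 of the 4 neighbouring pairs passed for either probe. Day 16 minus day 0 was -0.41, with a 95% interval from -0.86 to 0.04.

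The RARB calls between 2 days were lost in 36 of 336 values under the alternatives, against 15 of 378 for ESR1 and 5 of 252 for PGRMC1. With the slide as a block all 4 pairs stayed called and the F test gave an adjusted p of 0.00552, but with the mare and the slide both as blocks RARB was not called (limma, adjusted p = 0.109). For the brighter probe within slides, day 8 minus day 0 was -1.73 and -1.95, and day 16 minus day 8 lay between 0.73 and 0.96 in 4 slides. Day 3 minus day 0 was 0.10, -1.78 and -1.40 within slides, so 1 of 3 slides went the other way. The values -1.95, 0.73 and -1.40 came from slide 6, which held different mares. The brighter probe lost the call of day 3 against day 0 without mare 1 (-0.73, adjusted p = 0.0670) and without mare 5 (-0.82, adjusted p = 0.0594). It lost day 12 against day 0 without mare 5 (-0.77, adjusted p = 0.0514), and day 16 against day 8 without mare 3 (0.75, adjusted p = 0.0828). The second probe lost both day 3 and day 12 against day 0 without mares 1, 2 or 5 (limma, adjusted p up to 0.127). It lost day 16 against day 8 without mares 1, 2, 3 or 5 (adjusted p up to 0.146). That call was kept in 18 of 25 cases with 1 array left out. Within slides the second probe's day 12 minus day 0 difference was 0.16 and -0.73. In unscaled log2 signal the day means of the brighter probe were 8.55, 8.35, 7.89, 8.43 and 9.10 in day order, with day 8 again lowest and the highest mean at day 16.

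Set side by side by comparison, the pairs of days called for the 3 genes overlapped in part. A pair called for 1 gene and not for another is no test of a difference between them. For day 3 minus day 0, 2 of 10 probes were called, both RARB and both lower, with 5.66% of all tested probes called lower. For day 8 minus day 0, where 10.5% of tested probes were called higher and 11.4% lower, 5 of 10 probes were called: both PGRMC1 probes higher, and both RARB probes and the bright ESR1 probe lower. For day 8 minus day 3, with 6.05% of all tested probes called higher, both PGRMC1 probes were higher (7 of 10 at an unadjusted p under 0.05). For day 12 minus day 0, with 8.53% called lower, both RARB probes and the bright ESR1 probe were lower (6 of 10 at an unadjusted p under 0.05). For day 12 minus day 3 the 6 ESR1 probes were lower, with 9.23% of tested probes called lower.

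For day 16 minus day 8, with 7.91% of tested probes called higher and 7.13% lower, both RARB probes were higher and both PGRMC1 probes lower. For day 16 minus day 12, with 3.86% called higher, the bright ESR1 probe was higher. It was the only 1 of 10 called there, while 9 of 10 had an unadjusted p under 0.05 in limma. No receptor probe was called for day 16 minus day 0 (0 of 10, with 4.7% of tested probes called in limma), where 1 of 10 had an unadjusted p under 0.05, the bright ESR1 probe at 0.0174. The same held for day 16 minus day 3 (0 of 10, with 13.8% called), where the RARB probes had unadjusted p-values of 0.0110 and 0.0222. Comparisons that share a day share its 5 arrays. The median of all tested probes was itself -0.11 for day 3 minus day 0 and 0.15 for day 12 minus day 3, against 0.00 and 0.04 after quantile normalization.

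**Figure D4:**
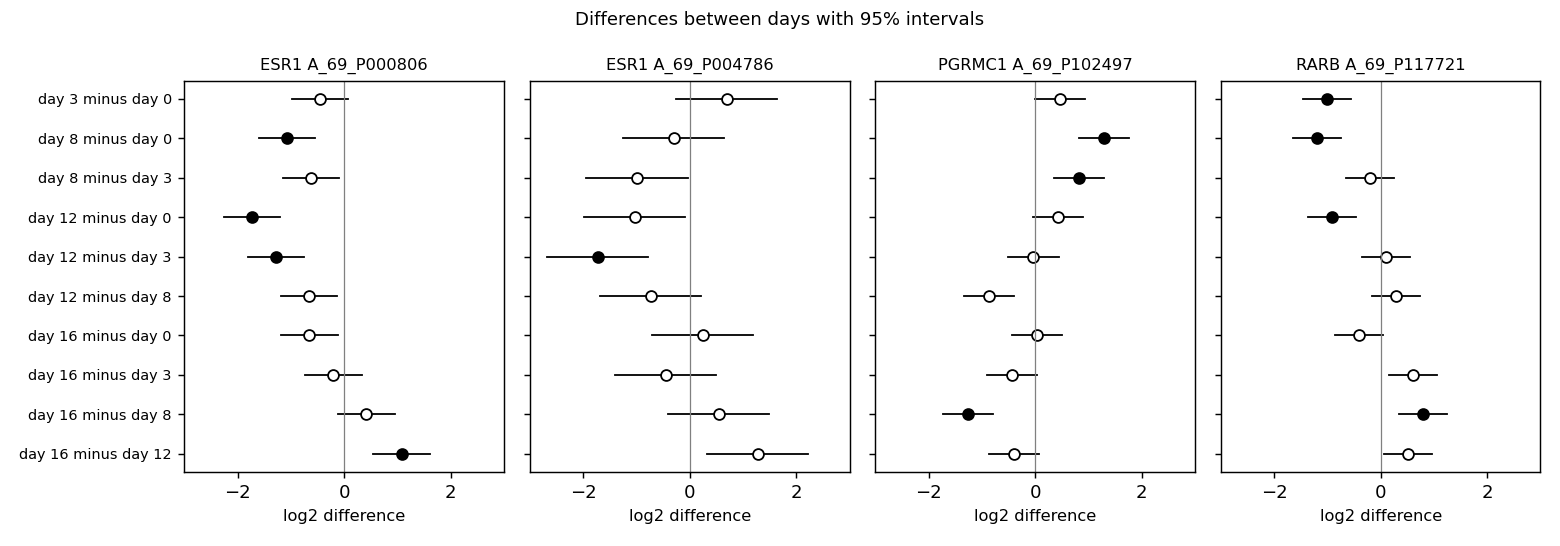
Log2 differences between days (later minus earlier) with 95% intervals for the brightest probe of ESR1, PGRMC1 and RARB and the brightest of the 5 dimmer ESR1 probes. Filled points passed limma's test at an adjusted p under 0.05: 4 of 10 pairs for the bright ESR1 probe, 1 for the dimmer one, 3 for PGRMC1 and 4 for RARB.

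Markers of cell types moved with some of these differences. Of 7 stromal fibroblast markers 2 had a named probe, LUM and DCN, which encode small matrix proteoglycans. Their summed signal, in units of the array's 75th percentile, ranged over 29.8 to 44.7, 8.63 to 25.1, 11.8 to 16.1, 12.6 to 20.04 and 18.2 to 36.9 in day order. Both were called lower at days 3, 8 and 12 against day 0, where ESR1 or RARB were also lower, and at day 8 against day 0 PGRMC1 was higher. LUM was higher at day 16 than at day 12 (1.64 ± 0.35) and DCN at day 16 than at day 8 (1.04 ± 0.26), as were the bright ESR1 probe in the first of these pairs and both RARB probes in the other. The epithelial marker ESRP1, 1 of 10 listed, was not called over the 5 days (limma, adjusted p = 0.621), with scaled signals of 5.85 to 12.6, 6.77 to 10.6, 6.62 to 8.20, 8.39 to 11.003 and 6.32 to 10.2 in day order.

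The remaining cell markers were measured sparsely. TAGLN of smooth muscle, 1 of 5, had scaled signals of 0.271 to 0.478, 0.134 to 0.428, 0.132 to 0.373, 0.193 to 0.319 and 0.457 to 1.19 in day order, where it was called higher than at every other day. PECAM1 of endothelium, 1 of 5, was called over the 5 days (limma, adjusted p = 0.0308). Of 8 T and NK cell markers 4 were measured, and their summed scaled signal had medians of 7.33, 5.62, 7.17, 10.02 and 8.48 in day order. GNLY, a protein of cytotoxic granules, was lower at days 3 and 8 than at day 0 (-0.97 and -1.72) and higher at day 16 than at day 8 (1.52), as were both RARB probes in these pairs. CCL5, a chemokine, was lower at day 8 than at day 0 (-1.03) and higher at day 16 than at day 8 (0.89), and both genes were higher at day 12 than at day 8. The other measured T and NK cell markers, GZMB and CD2, were not called over the 5 days (limma, adjusted p = 0.0823 and 0.986). GZMB had day means of 2.30 at day 0 and 2.45 at day 8. Of 7 macrophage and neutrophil markers 2 were measured, and CD68 was not called. CXCL8, a chemokine for neutrophils, was called lower at days 3, 8 and 12 against day 0 and higher at day 16 against days 3, 8 and 12, which includes all 4 pairs of days called for RARB. It was well above background on 4, 2, 1, 0 and 4 of 5 arrays in day order. DYDC1, the 1 measured marker of ciliated cells, was well above background on 18 of 25 arrays and was not called. No listed B cell or red blood cell marker had a named probe. The part of cell composition in the receptor differences was not tested.

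Few other genes of the steroid and retinoid pathways had a named probe, since only 1307 of the 43603 probes could be given a symbol. The counts called over the 5 days in each list stand against 35.8% of all tested probes. Of 45 other nuclear receptors 2 were measured. NR5A2, an orphan nuclear receptor that acts on steroid synthesis genes, differed between the days (limma, adjusted p = 0.000301) and was 1.67 ± 0.29 higher at day 16 than at day 3. NR5A1, a related receptor of steroid-producing cells, was not called (adjusted p = 0.309). The nuclear progesterone receptor and the other oestrogen and retinoic acid receptors had no named probe and were not analysed here. Of 16 membrane steroid receptors and PGRMC1 partners 0 were measured. POR, the electron donor of microsomal cytochrome P450 enzymes, is described with the enzymes below.

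Of 30 receptor coregulators and chaperones 5 were measured and 2 were called over the 5 days, near the 35.8% of all tested probes. PPARGC1A, a coactivator of nuclear receptors in energy metabolism, had day means of -1.26, -2.96, -2.75, -1.53 and -0.46 in day order, with days 3 and 8 called lower than day 0. HSP90AB1, a chaperone of steroid receptors, fell by 0.74 ± 0.16 at day 12 against day 0 (limma, adjusted p = 0.0021) and by 0.56 ± 0.16 at day 16 against day 0 (adjusted p = 0.0462). HSPA8 and PTGES3, further chaperones of that complex, had adjusted p-values of 0.0666 and 0.125, and MED1, a Mediator subunit, had 0.499. At day 12 against day 0 the list held 1 lower and 0 higher calls, with a median difference of -0.33. The median of all tested probes was 0.03, and 8.53% of them were called lower.

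Of 33 genes of retinoid transport, synthesis and breakdown 1 was measured, RBP4, which carries retinol. Its day means were 1.69, 0.44, 0.91, 3.83 and 4.10 in day order (limma F test, adjusted p = 2.33e-06). It rose by 2.92 ± 0.46 at day 12 against day 8 (adjusted p = 0.0051), a pair of days in which the RARB difference was 0.28 with a 95% interval from -0.17 to 0.74. It rose by 2.41 ± 0.46 at day 16 against day 0.

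Of 26 genes of sex steroid synthesis and inactivation 12 were measured and 6 were called over the 5 days, against 35.8% of all tested probes. POR was 1.57 ± 0.33 higher at day 8 than at day 0 and fell by 1.64 ± 0.33 at day 16 against day 8. HSD3B2, which makes progesterone from pregnenolone, was 2.32 ± 0.46 higher at day 8 than at day 0 and fell by 1.89 ± 0.46 at day 16 against day 8. These were 2 pairs of days in which both PGRMC1 probes were called in the same direction and both RARB probes in the opposite one. HSD3B2 was well above background on 3, 5, 5, 5 and 5 of 5 arrays in day order. HSD11B2, which inactivates cortisol, fell by 1.98 ± 0.50 at day 12 against day 3, and AKR1C1, an aldo-keto reductase that acts on steroids, was 1.71 ± 0.53 higher. At day 8 against day 0 the list held 2 higher and 0 lower calls, with a median difference of 0.02. The median of all tested probes was -0.03, and 10.5% of them were called higher.

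Of 35 oestrogen response genes known from rodent and human uterus 4 were measured and 3 were called over the 5 days. VEGFA, a growth factor of vessels, was lowest at day 0 and was 2.07 ± 0.36 higher at day 16. FOS, an immediate early transcription factor, was 2.99 ± 0.82 higher at day 16 than at day 8. CA12, a membrane carbonic anhydrase, was well above background on 2, 2, 1, 0 and 4 of 5 arrays in day order. IGF1, a growth factor, was not called (limma, adjusted p = 0.723). At day 12 against day 0 ESR1 was called lower by its brightest probe. In that pair of days the list held 1 higher and 1 lower call, with a median difference of 0.81. The median of all tested probes was 0.03. Of these 35772 probes 6399 were called in either direction, and 8.53% were called lower.

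Of 34 listed progesterone response genes of the uterus 4 were measured and 3 were called over the 5 days. The list was drawn from rodent, human and ruminant uterus, apart from P19, a lipocalin of the mare. It was chosen with earlier results of these data known, so its counts and median are descriptions. FST, the activin-binding follistatin, had day means of 0.63, 2.17, 3.25, 2.78 and 0.09 in day order and was 2.62 ± 0.20 higher at day 8 than at day 0. P19, the secreted lipocalin uterocalin of the mare, was 4.09 ± 0.50 higher at day 8 than at day 0. GM2A, a lysosomal activator protein, was 1.35 ± 0.28 higher at day 12 than at day 0. MSTN, myostatin, was not called (limma, adjusted p = 0.685). At day 8 against day 0 the list held 2 higher and 0 lower calls, with a median difference of 1.39. The median of all tested probes was -0.03, and 10.5% of them were called higher.

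**Figure D5:**
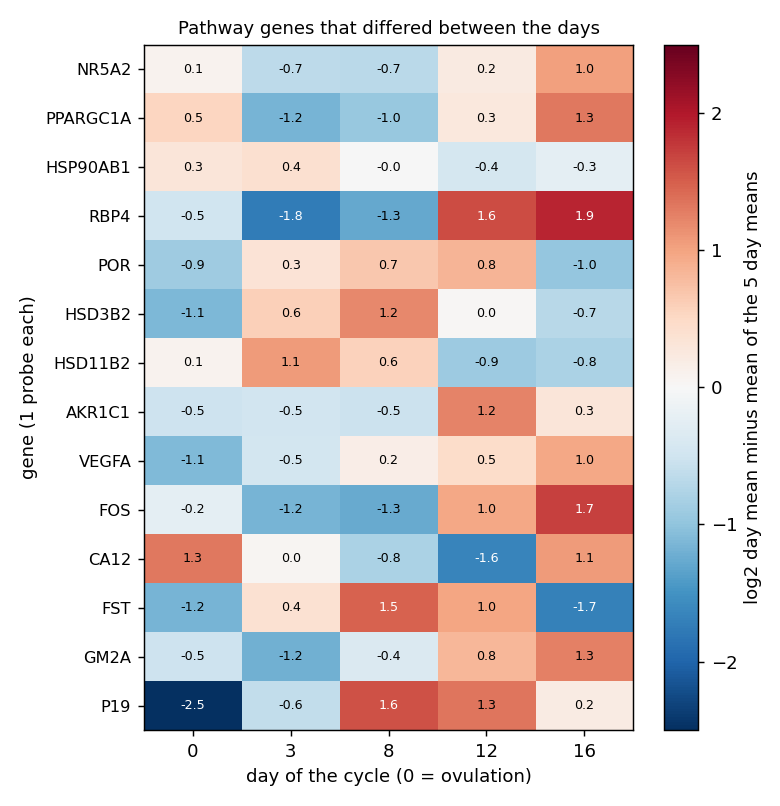
Day means of the pathway genes called in the F test and named here, as log2 level minus the mean of the gene's 5 day means (colour and printed value), with genes in rows and days in columns. FST is lowest at day 16 and P19 at day 0, both are highest at day 8, RBP4 is highest at days 12 and 16, and CA12 was above background on at most 4 of 5 arrays of any day.

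The genes whose levels ran most like each receptor were ranked by Pearson's r over the 25 arrays among 503 genes with a named tested probe. Arrays of 1 mare, arrays of 1 day and the array scaling are shared by all points, so r is a description. For the bright ESR1 probe the 5 highest were EDNRB at 0.80, MYH7 at 0.79, SERTAD4 at 0.77, GPCPD1 at 0.75 and PRICKLE1 at 0.75. The 3 lowest were CPT1A at -0.82, PTGER2 at -0.82 and CYP3A89 at -0.81. EDNRB is an endothelin receptor, PTGER2 a prostaglandin E2 receptor and CPT1A the enzyme that brings long fatty acids into mitochondria.

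For PGRMC1 the 5 highest were FAM133B at 0.82, RRAGA at 0.81, LGB1 at 0.80, SLC11A1 at 0.75 and FST at 0.74. Among the 3 lowest were USP3 at -0.71 and PLA2G4A at -0.71. LGB1 is a beta-lactoglobulin and PLA2G4A the phospholipase that frees arachidonic acid.

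For RARB the 5 highest included PDGFC at 0.88, MYH7 at 0.83, PIM1 at 0.83 and GSDME at 0.81. The lowest were HSD3B2 at -0.86, HK2 at -0.84 and LGB1 at -0.80. LGB1 was thus among the most alike for PGRMC1 and among the least alike for RARB, and MYH7 was among the 5 most alike for both ESR1 and RARB. Among the receptors themselves r was 0.59 for ESR1 and RARB, -0.33 for ESR1 and PGRMC1 and -0.61 for PGRMC1 and RARB. The brightest of the dimmer ESR1 probes gave r = 0.10 with RARB and -0.36 with PGRMC1. Its own most alike genes, looked up after the data had been seen, were NCBP2 at 0.71, CLTA at 0.70 and EIF4G3 at 0.68, followed by EDNRB and SERTAD4, both also among the 5 of the bright probe.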

How the data were processed

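Total RNA was isolated in Trizol and Cy3-labelled with a one-colour kit, per the labels' protocols. The deposited values are intensities made by Agilent Feature Extraction 10.7.3.1, per the submitters' processing notes and the file headers, which also record background subtraction within each array. The table deposited by the authors held the same numbers as that processed signal in 25 of 25 arrays, so its scale is linear and uncentred, with column medians of 71.8 to 375. No scaling between arrays is recorded.

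From these, log2 of the processed signal minus each array's 75th percentile was computed, spots marked as outliers were set missing and spots of a probe were averaged. A probe was tested if well above background on at least 4 of 5 arrays of some day. This left 35772 of 43603 probes. The tests were those of limma 3.58.1 (R 4.3.3), with all 25 arrays in 1 model, an F test over 5 days and 10 pairs of days (later minus earlier), Benjamini-Hochberg adjusted over all tested probes within each comparison, two-sided. A standard error after ± in a difference is limma's. Probe pairs were compared by 100000 permutations. Tests were tried on simulated data.

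Gene symbols came from RefSeq accessions and 32565 probes named by Ensembl transcripts were left without a symbol. The table's assembly is later than the array, so no positions are given, and sequences were not used here. Up to 4 genes a list were named, those with the smallest F adjusted p, and others of a list where its count is given. The receptors, lists and rules were chosen with earlier results of these data known. Same-numbered arrays come from the same mare per the labels. Deviations from the day means correlated at a median of 0.245 between arrays of 1 mare (50 pairs) and -0.05 between mares (200 pairs), and at 0.120 between arrays of 1 mare on different slides (26 pairs). Alternatives were other scaling, background correction, filters, blocks for mare, slide and scan day, an intensity trend, the array signal as a covariate, only the 2 days compared, and arrays or mares left out. The scan day was added after seeing the data. Python 3.11.15, pandas 2.3.3, numpy 2.4.6 and matplotlib 3.10.9 were used. Some genes that the ranking by likeness would name are not reported here.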

Additional observations from a re-analysis of the deposited data

Results flagged for a closer look

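Of the 55 groups of 5 arrays examined, that is each receptor probe, and the ESR1 probe difference, at each day, 2 held an array far from the other 4 by Dixon's ratio, where chance gives about 1 in 20 groups. The PGRMC1 level of mare 5 at day 3 by probe A_69_P102497 was 5.78, and the nearest of the other 4 arrays had 5.28. The RARB level of mare 4 at day 8 by probe A_69_P117721 was -2.92, and the nearest of the others had -2.64.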

How the results depend on the processing

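The F test over the 5 days was called for the brightest probe of each gene under all alternatives except 1. With the mare and the slide both as blocks, RARB had an adjusted p of 0.109. Its day 8 minus day 0 difference in that fit was -1.10 (limma, adjusted p = 0.0953). The range of day means, 1.20 for RARB, is taken from levels without blocks and is therefore the same under every block. The count of ESR1 probes called over the 5 days was 4 of 6 as reported and with the scan day as a block. It was 6 after quantile normalization, after normexp, with the mare as a block and without the day 0 array of mare 2 and the day 3 array of mare 4 (known from earlier results to stand apart), and 5 with an intensity trend or a stricter filter. It was 3 with the array signal as a covariate, 2 with the slide as a block, 1 without a filter on dim probes, 1 with mare and slide as blocks, 1 to 6 on leaving out 1 array and 1 to 5 on leaving out 1 mare. Without the filter p-values are adjusted over more probes, and leaving out arrays leaves fewer samples, while the cause under the blocks was not tested. After quantile normalization the range of ESR1 day means was 1.11 in place of 1.73, and no other called value of the receptors moved by over 1.5 times apart from the 2 ESR1 differences against day 0 at days 8 and 12. On leaving out 1 array or 1 mare the range of day means lay between 1.64 and 1.83 for ESR1, 1.19 and 1.46 for PGRMC1 and 1.06 and 1.36 for RARB, all called in limma (highest adjusted p 0.0175). The number of ESR1 probe pairs whose difference varied with the day was 0 of 15 under each alternative tried.

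The 23 called differences between 2 days gave 966 values under the alternatives. Of these, 910 kept direction and call, 56 kept the direction without the call, and 0 turned round. The lost calls were 15 of 378 for ESR1, 5 of 252 for PGRMC1 and 36 of 336 for RARB. With mare and slide as blocks all 8 RARB calls were lost, with adjusted p-values of 0.0953 to 0.320, and so were 2 of the 4 calls of the bright ESR1 probe, with 0.156 and 0.0845. Slides 1 to 5 each held 1 mare, so the mare and slide blocks overlapped. The cause of the lost calls was not tested. The mare as replicate block lost none of the F calls of the brightest probes (adjusted p = 0.000440 for ESR1) and no call between 2 days. All 10 probes were well above background on all arrays. The RARB probes had median signals of 308 and 269 units before scaling. After normexp the range of day means of the brighter RARB probe was 1.12 in place of 1.20 (limma F test, adjusted p = 0.000408). Whether the 6 ESR1 probes read the same part of the transcript was not tested.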
